A study of Rattus norvegicus with 6 samples.

Results

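The IL-6 family of cytokines was examined in rat myocardium after coronary artery ligation, through 10 genes chosen by name: the ligands Il6, Il11, Lif and Osm, the receptor chains Il6r, Il6st, Osmr and Lifr, the transcription factor Stat3 and its feedback inhibitor Socs3. Each of the 10 had 1 row among the 32623 genes of the table, and all 10 were among the 13964 genes tested, those averaging at least 0.5 FPKM. FPKM is a level scaled to gene length and library size, and CPM is a count scaled to the library size after TMM normalization, which adjusts each library by a factor for its composition. The members and the other lists were chosen by name, with earlier results of these data known.

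Total RNA of myocardium was sequenced from 3 samples of a sham group and 3 of an ischemia group, all labelled wild type and 30 min. The submitters' notes describe male rats that were opened by thoracotomy under anesthesia, and for ischemia a ligature on the left anterior descending coronary artery with occlusion read from the electrocardiogram. The sham procedure is not described separately, and strain, age and the part of the heart that was sampled are not given in the sources used here. The p-values measure the spread between these samples, since the labels do not say that each came from a separate animal.

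Cytokines of this family signal through receptor complexes that share the chain gp130, encoded by Il6st. Each ligand adds a chain of its own: Il6r for interleukin-6, Osmr or Lifr for oncostatin M, and Lifr for leukemia inhibitory factor. The complexes activate Janus kinases, which phosphorylate Stat3, and Stat3 in turn drives transcription of Socs3, which binds gp130 and the kinases and shuts the signal down. In the heart the pathway is known for acute-phase and survival signalling in cardiomyocytes and for its part in inflammation after injury.

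Total counts ranged from 68529126 to 79591989 per library, so that 3 counts corresponded to 0.0371 to 0.0459 CPM, which covers counting error only. Several libraries stood apart. Sham replicate 1 had 161 counts on the Y chromosome against 3218 to 8970 in the other libraries, in a study of male rats. The summed level of 5 atrial markers was 394.6 CPM in sham replicate 2 but 47956 and 36004 CPM in sham replicates 1 and 3. The summed level of 11 cardiomyocyte markers, all detected in each group, was 68637 to 124116 CPM in sham and 21134 to 50274 CPM in ischemia, without overlap, and was lowest in ischemia replicate 2.

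After ischemia 6 of the 10 genes rose at an adjusted p under 0.05 in the edgeR quasi-likelihood test, where 5.18% of all tested genes did. They were Socs3, Osmr, Stat3, Il6r, Osm and Il11. The 4 ligands, Osm and Il11 included, averaged under 0.5 FPKM in sham and entered the test through their ischemia values. With no FPKM filter 4 members were called higher, against 2.76% of 18562 genes. None of the 10 was called lower (background 1.53%), though Lifr pointed down with an unadjusted p of 0.0168. All 10 had an unadjusted p under 0.05, against 32.4% of all genes. In CPM the ischemia samples of 9 genes lay above all sham samples (background 22.0%) and those of Lifr below them (19.1%), the latter by a small margin that depended on the scaling. On the FPKM scale 9 of 10 did not overlap (38.6%), the exception being Lifr. For each single gene a two-sided exact permutation test gave p = 0.1, the smallest value that 3 samples against 3 allow.

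The calls depended on which libraries were included. When sham replicate 1, 2 or 3 was left out, or ischemia replicate 3, edgeR called 0 of 13964 genes, hence 0 members, although 9 of the 10 had an unadjusted p under 0.05 in each of these fits, as did 3020 to 3809 of all genes. With the atrial marker level as a covariate edgeR also called 0 genes, and 4 members and 2461 genes had an unadjusted p under 0.05. Without ischemia replicate 1 it called 8 members higher (10.7% of all genes), and without ischemia replicate 2 it called 7 (3.31%). DESeq2 called 5 members higher (14.8% of genes) and 1 lower (12.5%), and returned no p for Il6, Il11 and Lif. The signs of all 10 log2 fold changes were kept in each alternative in which the gene was tested. Leaving out a library could hardly reverse them, as the groups did not overlap in CPM.

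**Figure D1:**
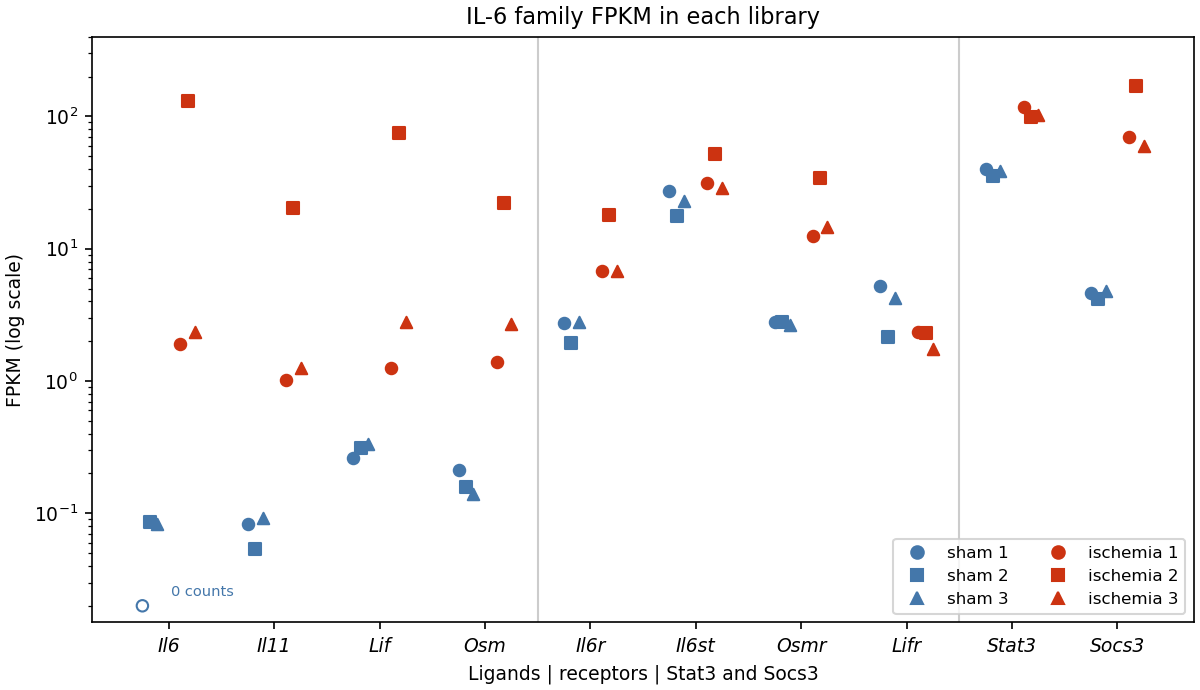
FPKM of the 10 genes in each library on a logarithmic axis, with sham in blue, ischemia in red and the marker shape giving the replicate. Il6 had 0 counts in sham replicate 1, drawn as an open circle at the foot of the axis. Ischemia replicate 2 stands far above the other 2 ischemia libraries for the 4 ligands, up to 131.0 FPKM for Il6, but not for Stat3 or Lifr.

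Short stretches upstream of the genes are shown because they hold the only matches to 4 motifs in the members' promoters, each motif being bound by a factor that acts on cytokine genes or in this pathway. RefSeq promoters of build GRCr8, from 250 bases before to 50 after the start site, were present for 8 of the 10 members, all but Lif and Osm. Both strands were searched for TTCNNNGAA (STAT), TGANTCA (AP-1), TGACGTCA (cAMP response element) and GGGNN followed by TTTCC (NF-kB). The matches are given 5′ to 3′ on the gene's strand with the motif in capitals.
Il6, NF-kB, chr4:5894624-5894653, minus strand, beginning 68 bases before the start: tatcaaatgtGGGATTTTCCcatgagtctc
Il6, cAMP response element, chr4:5894720-5894747, minus strand, beginning 162 bases before the start: ggatgctaaaTGACGTCAcattgtgcaa
Il11, AP-1, chr1:78098470-78098496, plus strand, beginning 142 bases before the start: ggagggagggTGAGTCAggatgtgtca
Osmr, AP-1, chr2:57688578-57688604, minus strand, beginning 33 bases before the start: gccccgcagcTGATTCAtagccggggc

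Among 33469 promoters of this length the NF-kB letters occurred in 1.53%, the cAMP response element in 1.83% and the AP-1 letters in 7.33%. The STAT letters occurred in 8.87% of all promoters and in 0 of the 8 member windows, Socs3 included, which says only that these letters are not in these windows. None of the matches overlapped another.

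In sham myocardium the 4 ligands were the lowest of the 10 genes in mean FPKM. Il6, an acute-phase cytokine secreted by leukocytes and stromal cells, had 0, 8 and 7 counts in sham replicates 1 to 3 and 164, 10265 and 174 counts in ischemia replicates 1 to 3. Ischemia replicate 2 was thus far above the other ischemia libraries, and the lowest ischemia library was 16.6 times the highest sham library in CPM. FPKM was 0.056 ± 0.049 in sham and 45.1 ± 74.4 in ischemia (SD, n = 3). Its log2 fold change of 9.25 ± 2.33 (SE) did not pass (edgeR adjusted p 0.0613). It was 4.98 (adjusted p 0.0681) without ischemia replicate 2, and passed at 9.80 (adjusted p 0.0299) without ischemia replicate 1.

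Il11, whose product acts mainly on stromal cells, rose. Sham libraries held 11, 8 and 12 of its counts and ischemia libraries 143, 2572 and 152, so that the groups were well apart. Its fitted log2 fold change was 6.38 ± 1.40 (SE; edgeR adjusted p 0.0496). Without ischemia replicate 2 it was 3.80 with an adjusted p of 0.0273 in edgeR, while with no filter on FPKM the call was lost (adjusted p 0.0576), as with total-count scaling (0.0542) and in limma with a pseudocount of 0.1 (4.16, adjusted p 0.0610) or 1 (2.09, 0.151).

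Lif, named for its effect on leukemia cells and active on cardiomyocytes through Lifr, had 45, 57 and 55 counts in sham and 230, 12453 and 440 in ischemia. All ischemia samples lay above sham, but ischemia replicate 2 was 32.9 times the mean of the other 2 in CPM. The log2 fold change of 6.22 ± 1.69 (SE) did not pass (edgeR adjusted p 0.0709). It passed at 2.67 (adjusted p 0.0476) without ischemia replicate 2 and at 6.76 (0.0282) without ischemia replicate 1.

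Osm, a product of neutrophils, macrophages and T cells, rose. It had 45, 36 and 29 counts in sham and 319, 4622 and 525 in ischemia, again without overlap. In edgeR its log2 fold change was 5.50 ± 1.15 (SE; edgeR adjusted p 0.0468). It was 3.52 (adjusted p 0.0309) without ischemia replicate 2, and lost its call with no filter on FPKM (0.0538), total-count scaling (0.0511) or limma on log2(FPKM + 1) (2.33, adjusted p 0.104). In the table Lif and Osm lie on the same strand of chromosome 14, Osm from 84465515 to 84470409 and Lif from 84482674 to 84500642, with 12264 bases and 0 listed genes between them. The genome build of the table is not given in the sources used here.

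The order of the ligands differed between libraries. In each sham library Lif was highest, at 0.26 to 0.34 FPKM, and Osm next, at 0.14 to 0.21 FPKM. In ischemia replicates 1 and 2 Il6 led, at 1.90 and 131.0 FPKM, while in ischemia replicate 3 Lif (2.78 FPKM), Osm (2.67 FPKM) and Il6 (2.34 FPKM) were close together. Summed over the 4 ligands, FPKM was 0.56, 0.61 and 0.65 in sham and 5.58, 248.1 and 9.06 in ischemia.

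Ischemia replicate 2 exceeded both other ischemia libraries more than 8-fold in CPM for 76 of 13964 tested genes (0.544%), and Il6, Il11 and Lif were 3 of them. It exceeded them more than 2-fold for 7 of the 10 members, against 8.02% of all genes. For Osmr, Il6r and Socs3 its excess over the mean of the other 2 was 2.29, 2.38 and 2.36 times, for Il6st 1.55 times and for Stat3 0.817 times, and Lifr was not raised there. The same library was highest for the summed neutrophil and monocyte markers.

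**Figure D2:**
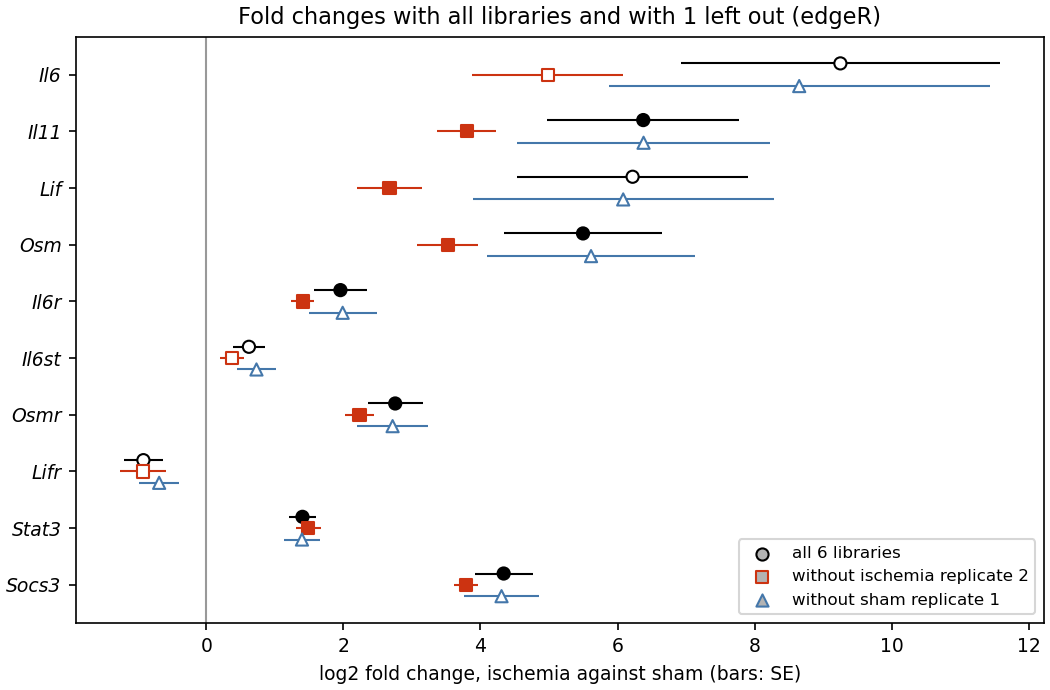
Log2 fold changes in edgeR with SE for all 6 libraries (black circles), without ischemia replicate 2 (red squares) and without sham replicate 1 (blue triangles). Filled symbols have an adjusted p under 0.05 and open symbols do not. Leaving out ischemia replicate 2 took Il6 from 9.25 to 4.98 and Lif from 6.22 to 2.67, while Stat3 went from 1.40 to 1.49.

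Among the receptor chains 2 of 4 rose, against 5.18% of all tested genes. Osmr, the oncostatin M receptor chain, had the highest log2 fold change among them, with FPKM of 2.81, 2.82 and 2.64 in sham and 12.4, 34.3 and 14.5 in ischemia. Its sham samples were almost equal and the lowest ischemia sample was 3.61 times the highest sham sample in CPM. On the log2 scale its fold change was 2.76 ± 0.40 (SE; edgeR adjusted p 0.0296), with a range from 2.24 to 2.99 over the 15 alternatives.

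Il6r, the ligand-binding chain for interleukin-6, which also exists in a shed form, rose. It had FPKM of 2.76, 1.93 and 2.82 in sham and 6.73, 17.9 and 6.75 in ischemia. Ischemia replicates 1 and 3 were alike and well above sham. The log2 fold change was 1.96 ± 0.39 (SE; edgeR adjusted p 0.0436), and 1.41 (adjusted p 0.0305) without ischemia replicate 2. Scaling to total counts ended the call (adjusted p 0.0534), as did limma on log2(FPKM + 1) (1.58, adjusted p 0.0546).

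Il6st, the shared chain, had FPKM of 27.5, 17.7 and 22.9 in sham and 31.1, 51.6 and 28.8 in ischemia. No sample of one group lay within the other, but the gap between sham replicate 1 and ischemia replicate 3 was small. Its log2 fold change of 0.62 ± 0.24 (SE) did not pass (edgeR adjusted p 0.132), nor did it in any of the 15 alternatives, where it ranged from 0.37 to 0.74.

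Lifr, the receptor chain for leukemia inhibitory factor, had FPKM of 5.24, 2.17 and 4.28 in sham and 2.36, 2.29 and 1.75 in ischemia. In FPKM sham replicate 2 lay among the ischemia samples, whereas in CPM, where its TMM factor was 0.834, it lay 1.12 times above the highest of them. Lifr was the only member with a negative log2 fold change, -0.92 ± 0.29 (SE), and did not pass in edgeR (adjusted p 0.0919). DESeq2 called it (adjusted p 0.0163). It was -0.69 (adjusted p 0.242) without sham replicate 1 and -1.15 (adjusted p 0.0830) without sham replicate 2. Sham replicates 1 and 3, which had the higher Lifr values, also had the high atrial marker levels. With the atrial level as a covariate Lifr was at -0.50 (edgeR adjusted p 0.383).

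Osmr and Lifr, which lay 274835 bases apart on chromosome 2 with 1 listed gene between them, had log2 fold changes of opposite sign. Ratios between members were chosen after their values were seen. The FPKM ratio of Osmr to Lifr was 0.537, 1.30 and 0.618 in sham and 5.24, 15.0 and 8.27 in ischemia. No overlap was seen between groups in this ratio (exact permutation p = 0.1, two-sided). The ratio of Il6r to Il6st was 0.111 ± 0.011 in sham and 0.266 ± 0.071 in ischemia (SD, n = 3), also without overlap (exact permutation p = 0.1, two-sided). As both ratios were chosen by their values, neither the lack of overlap nor these p-values can serve as support.

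Stat3 and Socs3 rose with little or moderate spread. Stat3, the transcription factor of the pathway, had FPKM of 40.1, 35.2 and 38.4 in sham and 116.9, 99.6 and 102.4 in ischemia. All ischemia samples were close together and at least 2.14 times the highest sham sample in CPM. Its log2 fold change was 1.40 ± 0.19 (SE; edgeR adjusted p 0.0286) and stayed between 1.31 and 1.49 in 15 alternatives. The table places Stat3 at 88790408 to 88842233 of chromosome 10, minus strand.

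Socs3, the inhibitor, lies on the same chromosome from 106975178 to 106976040. Its FPKM was 4.65, 4.16 and 4.83 in sham and 70.2, 171.0 and 59.9 in ischemia. Sham samples were almost equal, and the lowest ischemia sample was 12.3 times the highest of them in CPM. The log2 fold change was 4.34 ± 0.42 (SE), about 20.2-fold (edgeR adjusted p 0.0246), and only 14 tested genes had a smaller p. It was 3.79 ± 0.17 (adjusted p 0.00827) without ischemia replicate 2 and 4.31 (adjusted p 0.157) without sham replicate 1. The FPKM ratio of Socs3 to Stat3 was 0.120 ± 0.005 in sham and 0.967 ± 0.649 in ischemia (SD, n = 3), without overlap (exact permutation p = 0.1, two-sided). This ratio was also chosen after its values were seen, so its p cannot serve as support.

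The order of the levels was compared in FPKM. In sham Stat3 (37.9) and Il6st (22.7) led and were each apart from the gene after them. Socs3 (4.55), Lifr (3.89), Osmr (2.76) and Il6r (2.50) followed, their neighbouring ranges overlapping, and apart from these the 4 ligands came last at means of 0.056 to 0.304. In ischemia, by the mean, Stat3 (106.3) and Socs3 (100.4) led, Il6 (45.1) and Il6st (37.2) came next, and Lifr (2.13) was last. Each neighbour in that order overlapped the next, and the ligands ran from 1.02 to 131.0 FPKM. The places of the ligands and of Lifr rested on ischemia replicate 2. In replicates 1 and 3 Stat3 and Socs3 also led, but Il6 (1.90 and 2.34 FPKM) was below Il6st, Osmr and Il6r, and Lifr (2.36 and 1.75 FPKM) was above all 4 ligands in replicate 1 and above Il11 in replicate 3.

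Over the 6 libraries the genes with log2 CPM most like Socs3 were Myd88 (Pearson r = 0.999), an adaptor of Toll-like and interleukin-1 receptors, Fgf23 (0.998), a phosphate-regulating hormone, and Clec4b2 (0.998), a lectin receptor. Those most like Il6st were Ltb (0.993), Ggct (0.993) and Zcchc17 (0.992). Fgf23 and Clec4b2 had 0 counts in all 3 sham libraries and passed the filter through ischemia alone, so their sham values carry no more than that floor. These are descriptions over 6 points that share 2 groups, and 598 of 12217 genes compared had r above 0.95 with Socs3. Among the members, r ranged from 0.966 for Osm to 0.979 for Il11 between Il6 and the other ligands, and was -0.787 between Il6 and Lifr.

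Of 11 further ligands and receptors that use gp130 or belong to its relatives, 10 were in the table and 7 were tested, and 1 was higher and 0 were lower in edgeR, where 5.18% of all tested genes were higher and 1.53% lower. Their median log2 fold change was 0.47, against -0.0015 over all tested genes. The called gene was Clcf1, a ligand of the ciliary neurotrophic factor receptor, with counts of 81, 72 and 101 in sham and 368, 819 and 515 in ischemia and a log2 fold change of 2.67 ± 0.39 (SE; edgeR adjusted p 0.0298). Il11ra1, the chain for interleukin-11, named after its values were seen, did not pass at -0.99 ± 0.32 (SE; edgeR adjusted p 0.101). DESeq2 called it lower (adjusted p 0.0253).

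The list of JAK-STAT signalling held kinases, STAT factors, inhibitors, phosphatases, adaptors and receptor-shedding proteases, and 28 of its genes were tested. In edgeR 4 were higher and 1 was lower, against 5.18% and 1.53% of all tested genes, and the median was 0.10. Jak2, a kinase that associates with gp130, had FPKM of 5.29, 2.35 and 4.78 in sham and 16.1, 27.5 and 14.4 in ischemia, a log2 fold change of 2.16 ± 0.32 (SE; edgeR adjusted p 0.0298). Jak1 and Tyk2, the other kinases of gp130, named after their values were seen, were both at 0.09 with overlapping groups (edgeR adjusted p 0.808 and 0.729). The other 3 higher genes were the phosphatases Ptpn6 (2.12), Ptpn2 (1.73) and Ptpn1 (1.54), with edgeR adjusted p of 0.0395, 0.0415 and 0.0382, all of which are known to remove phosphate from kinases or factors of this pathway. The lower gene, named after its value was seen, was Socs2, an inhibitor of growth hormone signalling, at -1.03 ± 0.22 (SE; edgeR adjusted p 0.0485). The call of Socs2 was lost with no FPKM filter (edgeR adjusted p 0.0592), with total-count scaling (0.0913) and in limma with either pseudocount (0.0822 and 0.0854), as well as without ischemia replicate 2 (edgeR, 0.0842), and that of Ptpn2 with total-count scaling (0.0536). The table's own JAK-STAT pathway, without the 10 members, which it all includes, held 141 genes, of which 92 were tested. Of these 14 were higher and 2 lower, against the same 5.18% and 1.53%, and the median was 0.16.

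Of 28 genes known as STAT3 targets 23 were tested, and 12 were higher and 0 lower in edgeR, against 5.18% and 1.53% of all tested genes. Their median was 1.79, and 20 values were above 0, as were 49.9% of those of all tested genes. The lowest value was that of Fgg, a fibrinogen chain named after its values were seen, which did not pass in edgeR (adjusted p 0.110) but was called lower by DESeq2 (0.0138) and by limma with either pseudocount (0.0276 and 0.0281), and by edgeR without ischemia replicate 1 (0.0136). It had counts of 434, 305 and 176 in sham and 35, 0 and 0 in ischemia. Timp1, an inhibitor of matrix metalloproteinases, had FPKM of 23.9, 17.0 and 23.0 in sham and 665.1, 1215 and 644.4 in ischemia, a log2 fold change of 5.21 ± 0.31 (SE; edgeR adjusted p 0.0110). The metallothioneins Mt2A and Mt1, which bind zinc and copper, had log2 fold changes of 7.40 and 4.30 (edgeR adjusted p 0.0246 and 0.0289). Lcn2, a siderophore-binding protein of neutrophils and stressed epithelium, was at 5.94 (edgeR adjusted p 0.0351). Sham libraries held 279, 842 and 336 Lcn2 counts and ischemia libraries 69764, 9144 and 21277, so that ischemia replicate 1 was highest, the library in which the counts of Il6, Il11, Lif and Osm were the lowest of the 3.

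**Figure D3:**
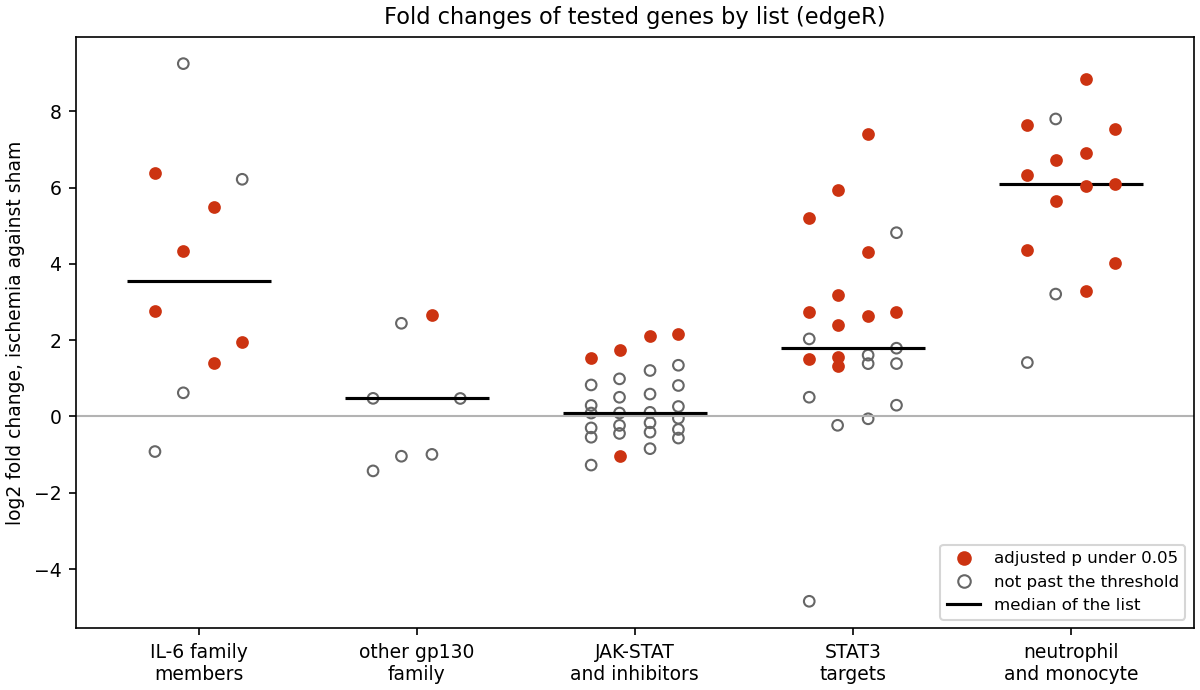
Log2 fold changes of the tested genes of the 10 members and 4 other lists, with genes past an adjusted p of 0.05 in red, other genes as open circles and the median of each list as a bar. The STAT3 target genes had a median of 1.79 and the neutrophil and monocyte genes 6.11, while the JAK-STAT genes were spread around 0.10. Several neutrophil and monocyte genes passed the FPKM filter through their ischemia values alone.

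The summed marker levels of some cell types, but not of all, lay apart between the groups. Of 17 neutrophil and monocyte markers 15 were tested, and 12 were higher and 0 lower, against 5.18% and 1.53% of all tested genes. The median log2 fold change was 6.11. Several of these markers, such as Mmp9 at a mean of 0.059 FPKM in sham, passed the FPKM filter through ischemia alone. The summed level of all 17 was 54.8, 58.6 and 51.8 CPM in sham and 479.1, 3426 and 638.3 CPM in ischemia, with 1 of the 17 genes at 0 counts in all sham libraries. As for the 4 ligands, ischemia replicate 2 was highest. In bulk tissue a change in the number of such cells and a change in RNA per cell cannot be told apart, and the part of these cells in the values of Il6, Osm and the other members was not tested.

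Of 10 resident macrophage markers 2 were higher and 0 lower, against 5.18% and 1.53% of all tested genes. They summed to 373.3 to 442.5 CPM in sham and 421.0 to 627.1 CPM in ischemia. Fibroblast markers summed to 3531 to 9109 CPM in sham and 773.9 to 2564 CPM in ischemia, and none of 7 tested passed in edgeR. Endothelial markers summed to 997.9 to 1248 CPM in sham and 987.5 to 1242 CPM in ischemia. The 11 cardiomyocyte, 5 atrial, 7 endothelial, 6 smooth muscle and 4 lymphocyte markers tested had medians of -0.79, -3.66, -0.07, -1.35 and 0.75, and 0 of them passed in edgeR. Their part in the members' values was not tested.

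**Figure D4:**
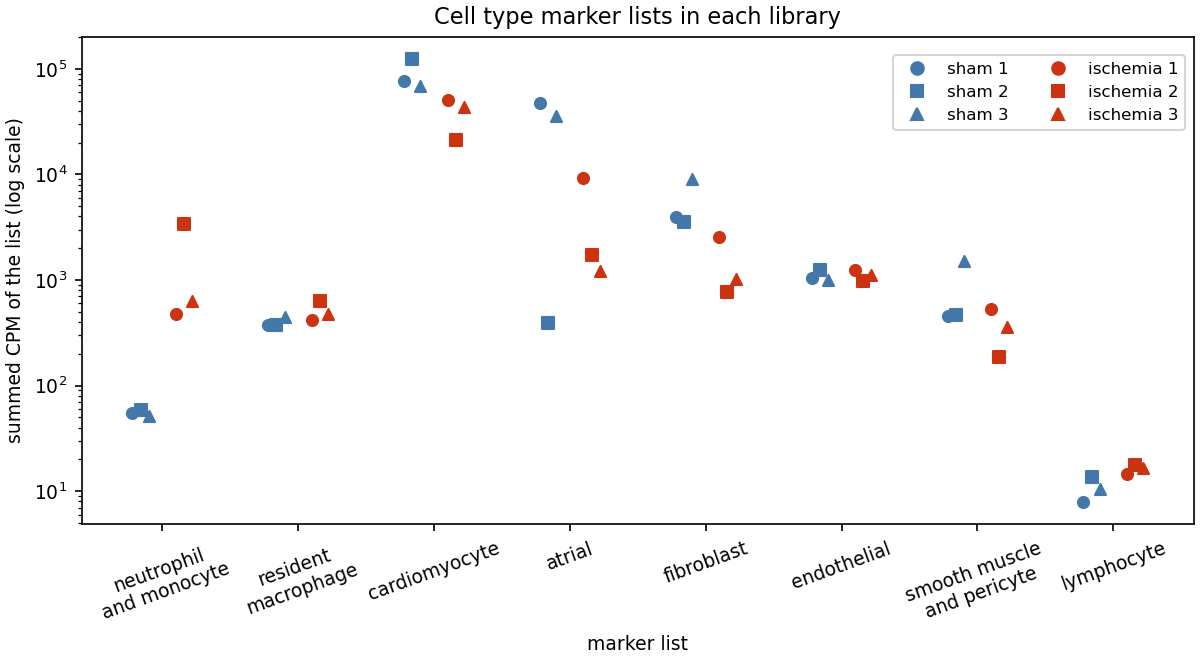
Summed CPM of 8 marker lists in each library on a logarithmic axis, with sham in blue and ischemia in red. Neutrophil and monocyte markers ran from 51.8 to 58.6 CPM in sham and from 479.1 to 3426 CPM in ischemia, and atrial markers from 394.6 to 47956 CPM within sham alone.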

How the data were processed

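RNA-seq of rat myocardium was analysed from 1 deposited table of raw counts and FPKM per gene, both made by the authors. Libraries were built with a stranded total RNA kit, and the submitters' processing notes name STAR and HTSeq with no version or role. The genome build is not given in the sources used here. Samples were grouped by the labels' treatment. Counts of 13964 genes with mean FPKM of at least 0.5 were scaled by TMM and fitted with edgeR 4.0.16 (quasi-likelihood test, ischemia against sham, no covariate) in R 4.3.3, with Benjamini-Hochberg adjustment over all of them and a threshold of 0.05. The test was checked on simulated data. FPKM and the ratios were described as mean ± SD, and single genes by a two-sided exact permutation test.

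The members and lists were chosen with earlier results of these data known. Of each other list, at most 4 genes past the threshold were named, by absolute log2 fold change, and the 3 genes most like Socs3 and Il6st by Pearson r. Alternatives were DESeq2 1.42.0, limma 3.58.1 on log2(FPKM + pseudocount) with pseudocounts of 0.1 and 1, other scalings and filters, a replicate block, an atrial covariate and leaving out each library. The authors' comparison columns (fold changes and p-values) were not used.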

Additional observations from a re-analysis of the deposited data

How the results depend on the processing

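edgeR called 723 genes higher and 214 lower, 6 members higher and 0 lower, and 17 genes of the other pathway lists higher and 1 lower. DESeq2 gave 2071 and 1742 genes, with 1 member and 6 list genes lower. Without the FPKM filter 103 genes and 0 list genes were lower. With total-count scaling, which moved the median log2 fold change of all genes to 0.088, 83 genes and 0 list genes were lower. In that fit 3 members and 3.65% of all tested genes were higher. limma on log2(FPKM + 1) called 3 members and 4.70% of all tested genes higher. The replicate block and the atrial covariate each left 0 genes, 0 members and 0 list genes called, with 3349 and 2461 genes at an unadjusted p under 0.05. Leaving out 1 library gave 0 to 1490 genes higher and 0 to 1115 lower, 0 to 8 members higher and 0 lower, and 0 to 20 list genes higher and 0 to 3 lower. The causes were not tested. Same-numbered samples did not deviate together (r = -0.0561, -0.0940 and -0.196), so the numbers were not read as pairs. With a mean FPKM filter of 5, Il11, Osm or Lifr could not be tested. No member's log2 fold change reversed its sign in an alternative that tested it, as groups without overlap in CPM made likely. Il6 and Il11 had 0 to 12 counts in sham libraries, which limits the precision of their folds.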
